A study of Mus musculus with 40 samples.

Results

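The CC chemokine genes Ccl2, Ccl7, Ccl8, Ccl12, Ccl3, Ccl4, Ccl5, Ccl6 and Ccl9, and Ccr2, a receptor for several of them, were followed across all 40 libraries of a mouse RNA sequencing series. These 10 genes were taken by symbol from the 54307 genes of the deposited table. The study asked how endothelial TGFβ signaling and mononuclear phagocytes (MP, the family of microglia, macrophages and monocytes) act together after laser injury, which breaks Bruch's membrane and lets choroidal vessels grow beneath the retina. Choroid and retina of 20 mice were collected 3 days after 6 laser burns per eye, and of the choroid only the central part with the lesions was sequenced.

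All mice were on a C57BL/6J background, of both sexes, carried 2 floxed Tgfbr2 alleles and received tamoxifen eye drops at 6 to 7 weeks of age. Tgfbr2ΔEC mice carried in addition the tamoxifen-inducible Cdh5-CreERT2, whose promoter is active in endothelium, and control mice were littermates without Cre. PLX5622 (PLX), an inhibitor of the receptor CSF1R that microglia and macrophages need to survive, was in the food of the + PLX mice throughout, beginning with the eye drops, and – PLX mice ate control food. The 4 groups, control – PLX (mice 1 to 5), Tgfbr2ΔEC – PLX (mice 6 to 10), control + PLX (mice 11 to 15) and Tgfbr2ΔEC + PLX (mice 16 to 20), held 5 mice each, and each mouse gave 1 choroid and 1 retina. Every eye was lasered, so no level stands for an uninjured eye.

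Chemokines are small secreted proteins that attract leukocytes along a gradient through G protein-coupled receptors, and the CC class carries its first 2 cysteines side by side. Ccr2 marks the inflammatory monocytes that leave bone marrow and blood for injured tissue, and Ccl2, Ccl7 and Ccl12 are its mouse ligands. Ccl3, Ccl4 and Ccl5 attract macrophages, monocytes and T cells, Ccl3 and Ccl5 in part through Ccr1, and Ccl6 and Ccl9 are rodent chemokines that act on Ccr1. Ccl8 belongs by sequence with the Ccr2 ligands, but in the mouse acts mainly on Ccr8. Infiltrating monocytes and resident macrophages both make many of these chemokines, and endothelium, fibroblasts and pigment epithelium can make Ccl2.

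The values were normalized counts on 1 scale for both tissues, since over the 15800 genes above 0 in all 40 libraries each library had the same median log2 ratio to the genes' geometric means (0.0117). One read was worth 0.905 to 1.19 of these units in choroid and 0.745 to 1.125 in retina, estimated from the spacing of low values, and the limit that a count of 0 allows, 3 reads, therefore lay at 2.715 to 3.57 and 2.235 to 3.375 units. The estimated depth was 21583339 to 28174821 reads in choroid and 20940403 to 30421581 in retina. The tissue labels fitted their markers. The summed neural retina list was 1011910 to 1504110 in retinas, whereas pigment epithelium markers summed to 105495 to 242503 in choroids against 5614 to 15039 in retinas. Neural retina genes were nonetheless present in every choroid, at 3968 to 134710, with the highest sums in the 5 Tgfbr2ΔEC – PLX choroids (47359 to 134710) and in control + PLX mouse 15 (130823). Tgfbr2 itself, which other cells also express, did not mark the genotype in choroid, at 10503 ± 425 (SD, n = 5) in control – PLX and 10176 ± 1077 in Tgfbr2ΔEC – PLX (exact permutation p = 0.524). The retinas of mice 1, 5 and 6 stood apart from the other 7 – PLX retinas in several leukocyte genes, and the retinal comparisons are also given without them where they change.

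All of these genes except Ccr2 lay on mouse chromosome 11 (GRCm39) in adjacent clusters. Ccl2 (ENSMUSG00000035385, 81926397 to 81928279), Ccl7 (81936532 to 81938351), Ccl12 (81992645 to 81994466) and Ccl8 (82006007 to 82007625) followed each other on the plus strand. Ccl5 (83416602 to 83425942), Ccl9 (83463745 to 83473161), Ccl6 (83478708 to 83483913) and Ccl3 (83538670 to 83540191) lay on the minus strand and Ccl4 (83553383 to 83555509) on the plus strand. Ccr2 (ENSMUSG00000049103) lay apart, on chromosome 9 from 123901982 to 123913594. An antisense gene, E230016K23Rik, overlaps Ccl6 and Ccl9, but its mean over the 40 libraries was 6.56 and the libraries were stranded.

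The promoters shown are those of the 3 genes that PLX lowered most in choroid among those with a RefSeq promoter entry. The 150 bases before each start are given 5′ to 3′ on the gene's strand (RefSeq, build GRCm38.p6), Ccl12 from chr11:82101695-82101844 on the plus strand, Ccl8 from chr11:82115035-82115184 on the plus strand and Ccl3 from chr11:83649379-83649528 on the minus strand. Capitals mark TATAAA and GAGGAA, the core bound by the myeloid factor PU.1, or its complement TTCCTC.
Ccl12: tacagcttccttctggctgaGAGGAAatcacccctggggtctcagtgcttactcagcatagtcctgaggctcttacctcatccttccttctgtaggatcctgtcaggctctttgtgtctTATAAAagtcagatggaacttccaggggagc
Ccl8: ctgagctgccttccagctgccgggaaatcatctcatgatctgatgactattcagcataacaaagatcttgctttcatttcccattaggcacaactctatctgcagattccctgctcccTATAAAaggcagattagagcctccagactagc
Ccl3: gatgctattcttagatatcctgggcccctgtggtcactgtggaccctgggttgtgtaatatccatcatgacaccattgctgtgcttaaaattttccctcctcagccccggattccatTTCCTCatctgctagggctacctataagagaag

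Ccl12 and Ccl8, neighbours on the chromosome, shared the base at 58 of the 150 positions (38.7%), Ccl12 and Ccl3 at 42 (28%) and Ccl8 and Ccl3 at 32 (21.3%). Within the 250 bases before the start, searched on both strands, TATAAA was found in Ccl12 (31 bases before the start), Ccl8 (32 bases) and Ccl9 (92 bases, and 94 and 224 bases on the opposite strand), against 12.4% of all 32851 promoters. GAGGAA was found in 3 of the 6 members with an entry, against 23.3% of all promoters. These were Ccl12 (130 bases before) and, as the complement, Ccl8 (240 bases, beyond the stretch shown) and Ccl3 (33 bases). The part of these letters in the fall with PLX was not tested. The AP-1 letters TGANTCA (6.7% of promoters) were found in Ccl9 alone of the 6 members with an entry (Ccl8, Ccl12, Ccl3, Ccl6, Ccl9 and Ccr2).

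In choroid, PLX lowered 9 of the 10 genes, and Ccl5 was the exception. The comparison asks which chemokine transcripts depend on cells that PLX removes, and each of the 9 passed limma's test on log2(normalized count + 1) at an adjusted p of 0.05, with both genotypes in one contrast, when 5.06% of the 23619 genes tested were called lower. In 7 of the 10 genes the 10 choroids without PLX did not overlap the 10 with PLX, against 1.75% of genes tested. The median log2 difference of all 10 was -1.85, beside 0.00 over all genes. In these bulk samples, fewer cells of a type and less RNA per cell cannot be told apart.

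Ccl8 and Ccl12 fell most. Ccl8 was 311, 256, 682, 489 and 279 in control – PLX choroids and 166, 275, 216, 238 and 295 in Tgfbr2ΔEC – PLX choroids. With PLX it was 11, 31.8, 19.4, 48.1 and 17.2 in controls and 13.4, 33, 32.2, 21.1 and 19.7 in Tgfbr2ΔEC. The highest choroid with PLX thus held far less than the lowest without, at 48.1 against 166. The mean fell from 321 ± 153 (SD, n = 10) to 24.7 ± 11.4, 13-fold, with a log2 difference of -3.65 (SE 0.25, 95% interval -4.17 to -3.14, limma adjusted p = 1.08e-09).

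Ccl12 was 120.4, 96.6, 173, 98.9 and 81.0 in control – PLX and 53.6, 90.4, 62.4, 91.7 and 43.5 in Tgfbr2ΔEC – PLX choroids. With PLX it was 10.3, 9.30, 6.27, 9.93 and 0 in controls and 2.75, 19.8, 5.64, 3.98 and 9.25 in Tgfbr2ΔEC. No choroid with PLX reached the level of any choroid without, and 2 of the 10 lay at or under 3 reads, so that Ccl12 with PLX was close to the limit of detection. Its mean fell from 91.2 ± 37 to 7.72 ± 5.44, 11.8-fold, with a log2 difference of -3.64 (SE 0.40, adjusted p = 1.33e-06).

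The other ligands of Ccr2, Ccl2 and Ccl7, fell less, although they are encoded beside Ccl12 and Ccl8. Ccl2 was 435, 442, 476, 374 and 361 in control – PLX and 331, 354, 335, 249 and 212 in Tgfbr2ΔEC – PLX choroids. With PLX it was 137, 282, 187, 165 and 109 in controls and 213, 253, 207, 169.5 and 121 in Tgfbr2ΔEC. The groups overlapped, the highest choroids with PLX lying above the 2 lowest Tgfbr2ΔEC – PLX choroids. The mean was 1.94-fold lower with PLX (357 ± 82.8 against 184 ± 55.8, SD, n = 10), a log2 difference of -0.97 (SE 0.16, adjusted p = 0.000267, exact stratified permutation p = 0.000157). Ccl7, which like Ccl2 attracts monocytes through Ccr2, went from 188 ± 44.8 to 78.3 ± 30.9, a log2 difference of -1.33 (SE 0.22, adjusted p = 0.00024), and only the highest with PLX, 126 in mouse 12, passed the lowest without, 125 in mouse 10.

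Ccl3, Ccl4 and Ccl5 did not move alike. Ccl3 lay between 80.7 and 199.9 in choroids without PLX and between 8.87 and 42.9 in those with it. Ccl4 lay between 49.9 and 80.6, and between 4.29 and 15.6 with PLX, so neither overlapped. Ccl3 fell 5.38-fold (log2 difference -2.45, SE 0.24, adjusted p = 2.13e-07) and Ccl4 fell 6.57-fold (-2.66, SE 0.21, adjusted p = 8.54e-09). The mean of Ccl4 with PLX, 10.3 ± 3.79, was 3.27 times the mean 3-read limit. Ccl5, known as a product of T cells and NK cells as well as of macrophages, was 55.2, 99.5, 94.8, 103 and 102 in control – PLX, 54.3, 84.4, 87.1, 64.6 and 78.4 in Tgfbr2ΔEC – PLX, 73.3, 100.3, 26.6, 40.03 and 58.2 in control + PLX, and 75.4, 76.9, 39.8, 72.2 and 79.5 in Tgfbr2ΔEC + PLX choroids. These ranges overlapped widely, and the log2 difference of -0.41 (SE 0.21, 95% interval -0.86 to 0.03) did not pass the test (limma adjusted p = 0.302, exact p = 0.0791). The ratio of Ccl5 to Ccl4 had a median of 1.19 without PLX and 6.37 with PLX, whereas that of Ccl3 to Ccl4 was 2.05 and 2.49.

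Ccl6, Ccl9 and Ccr2 had the highest counts, not corrected for gene length, and similar log2 differences. Ccl6 had a lowest, median and highest value of 1627, 2356 and 2722 without PLX, and of 295, 610.0 and 976 with it. Ccl9 lay between 947 and 1948 without PLX, whereas PLX choroids held 285 to 903. Ccr2 was 2415, 1826, 2555, 2315 and 3415 in control – PLX, 1386, 1774, 2243, 3434 and 1693 in Tgfbr2ΔEC – PLX, 425, 571, 835, 749 and 316 in control + PLX, and 948, 778, 754, 578 and 560.0 in Tgfbr2ΔEC + PLX choroids. None of these 3 genes overlapped between the diets. Their log2 differences were -1.88 for Ccl6 (SE 0.17, adjusted p = 7.32e-08), -1.76 for Ccl9 (SE 0.20, adjusted p = 1.49e-06) and -1.83 for Ccr2 (SE 0.18, adjusted p = 2.8e-07). The means with PLX were 28.4%, 31% and 28.3% of those without.

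**Figure D1:**
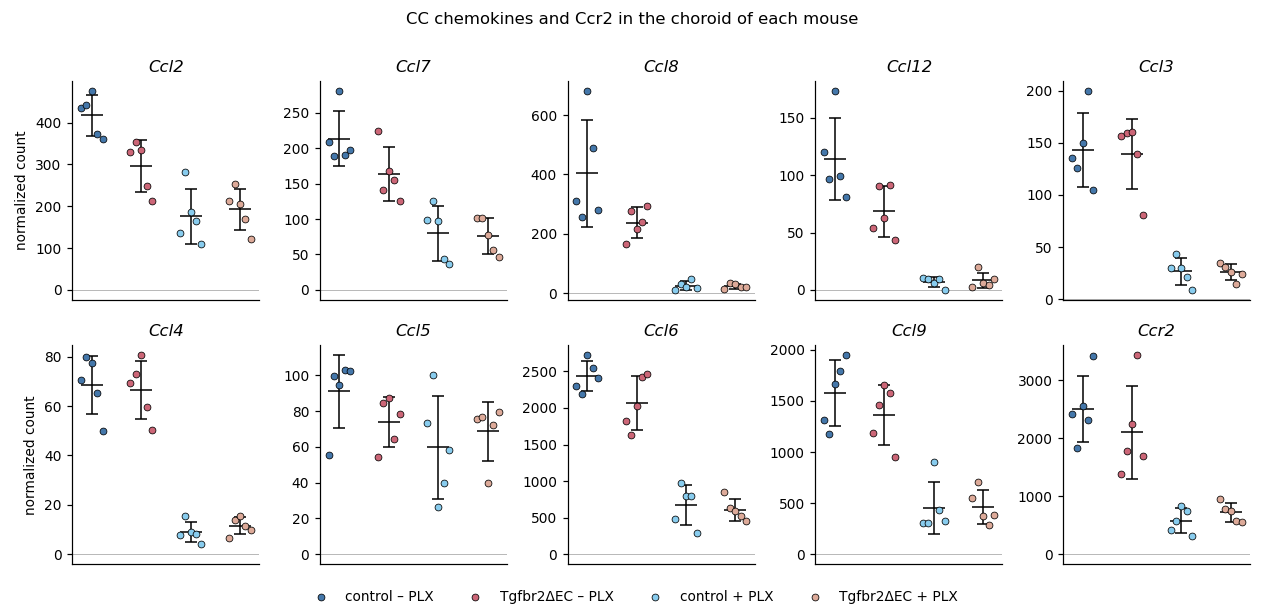
Normalized counts of the 10 genes in each of the 20 choroids, by group of 5 mice, with each point 1 mouse and the bar the group mean with its SD. Ccl8 and Ccl12 lie lowest relative to the mice without PLX, Ccl5 overlaps across all 4 groups, and 1 Ccl12 value (mouse 15) lies at 0.

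Within control mice alone, 9 of the 10 were called lower (3.15% of genes tested), and all 9 had groups of 5 that did not overlap (3.27%). Within Tgfbr2ΔEC mice, 8 were called lower (3.5%), and the same number did not overlap (5.16%). Neural retina genes moved with the diet in the second contrast, where all 10 were below 0 (median log2 difference -2.19), all at an unadjusted p under 0.05 and 1 called, whereas in controls their median was 0.12 and none had such a p. With the mean level of these genes as a covariate, 9 of the 10 chemokine and receptor genes were still called lower by diet over both genotypes (limma). The values within each genotype with that covariate are not reported here. Ccl2 made the difference, at -1.31 (SE 0.22, adjusted p = 0.00077) in controls and -0.63 (SE 0.22, adjusted p = 0.137, exact permutation p = 0.0397) in Tgfbr2ΔEC mice. The difference between these effects is the interaction given below, and it did not pass the test.

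**Figure D2:**
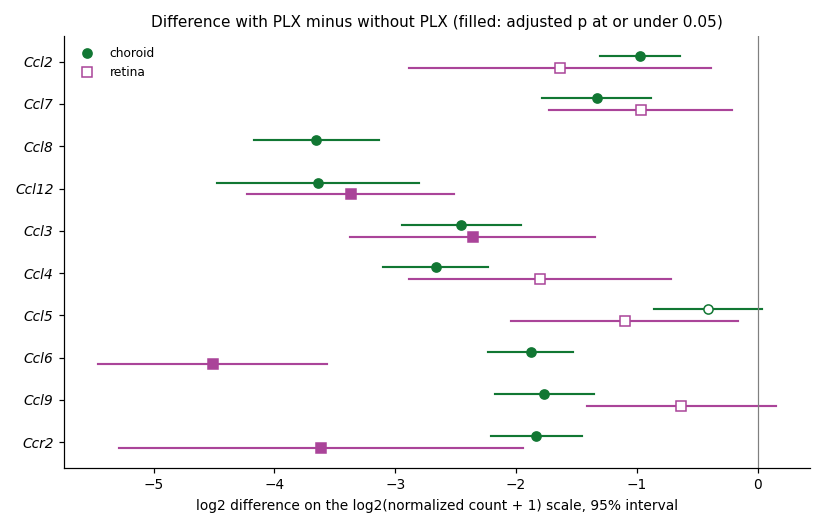
Log2 difference with PLX minus without PLX, both genotypes together, for each gene in choroid and in retina, with 95% intervals from limma. In choroid the intervals of 9 genes lie below 0 and that of Ccl5 reaches 0.03, whereas in retina the interval of Ccl9 reaches 0.15 and Ccl8 was too low to be tested.

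Because the genes differ in length, their levels were compared per kilobase of exon. In choroids without PLX the median per kb ran from Ccl6 (1296) through Ccl8 (538), Ccl9 (488), Ccr2 (337), Ccl2 (315), Ccl7 (235), Ccl3 (186), Ccl12 (113) and Ccl4 (102) to Ccl5 (83.5). Every neighbour in this order overlapped the next in range, so the order holds only over wider steps. With PLX it ran Ccl6 (336), Ccl2 (157), Ccl9 (122), Ccl7 (108), Ccr2 (98.1), Ccl5 (70.8), Ccl8 (39.6), Ccl3 (36.1), Ccl4 (13.8) and Ccl12 (9.66), again with overlapping neighbours. Ccl8 thereby moved from the second to the seventh place and Ccl2 from the fifth to the second. The ratio of Ccl8 to Ccl2 within a choroid had a range of 0.501 to 1.43 without PLX and of 0.0631 to 0.292 with it, and that of Ccl12 to Ccl2 of 0.162 to 0.369 and of 0 to 0.0782, neither overlapping. The ratio of Ccl6 to Ccl9 kept a median near 1.53 and 1.56, and that of Ccl6 to Ccr2 a median of 1.01 and 0.915.

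**Figure D3:**
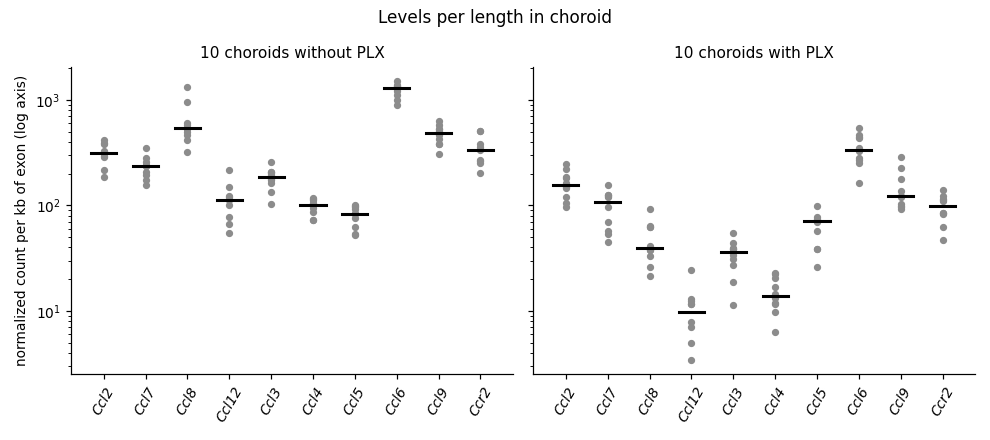
Level per kilobase of exon in choroid for the 10 genes, without and with PLX, each point 1 choroid (n = 10 per diet, log axis) and each bar the median. Ccl6 has the highest median in both diets, and 1 Ccl12 value at 0 with PLX is not shown on the log axis.

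The rest of the CC family was followed in the same choroids. Of 10 tested chemokines outside the 10 genes, 2 were called lower and none higher. Ccl24, an eosinophil attractant that macrophages make, went from 48.0 ± 21.8 to 4.83 ± 3.48 (log2 difference -3.29, adjusted p = 2.66e-07), and Ccl22, a dendritic cell chemokine, from 84.8 ± 65.8 to 25 ± 14.4 (-1.65, adjusted p = 0.0256). Ccl11, an eosinophil attractant encoded between Ccl7 and Ccl12, was 663 ± 219 without and 554 ± 155 with PLX (-0.26, adjusted p = 0.453). Among the other CC receptors, Ccr1, which binds Ccl3, Ccl5, Ccl6 and Ccl9, went from 449 ± 77.7 to 111 ± 16.5 (-2.01, adjusted p = 7.71e-11). Among the others called lower were Ccr7, which guides dendritic cells to lymph nodes (-1.21, adjusted p = 0.00255), and Ccr9, a receptor of gut-homing lymphocytes (-1.11, adjusted p = 0.0383).

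Marker lists of cells that could make or carry these proteins moved with the diet in choroid, in both directions, and apart from the neural retina genes their part in the chemokine differences was not tested. Of 16 MP genes tested, 15 were called lower, with summed levels of 48397 to 57722 without and 13220 to 20313 with PLX. Cx3cr1, the fractalkine receptor, went from 1553 ± 219 to 142 ± 38, and Tmem119 was the exception (log2 difference 0.03). All 8 resident and perivascular macrophage genes were called lower, with sums of 12908 to 25284 against 1675 to 4989, and the mannose receptor Mrc1 (-4.14) had the lowest p of the list. Of the 7 monocyte genes only Ms4a4c was called lower (-1.84, adjusted p = 0.00344), but all 7 were below 0 (median -0.43), 4 of them at an unadjusted p under 0.05, and the summed list was 1423 to 2731 against 1037 to 2703. Counts called lower were 4 of 7 for dendritic cells, 2 of 6 for neutrophils, 1 of 5 for B cells (the other 4 above 0, median of the list 0.42; 3 of the 6 neutrophil genes were likewise above 0) and 0 of 10 for T and NK cells, of which 0 had an unadjusted p under 0.05. Of the 6 endothelial genes 3 were called higher (all 6 above 0, 5 at an unadjusted p under 0.05), among them the receptor Tie1 (0.27), and of the 6 fibroblast genes 1, the proteoglycan Dcn (0.45), was called higher. None of the 10 neural retina genes was called, although all were below 0 (median -1.10) and 4 had an unadjusted p under 0.05. All 7 mast cell genes were above 0 (median 0.15), 2 at an unadjusted p under 0.05 and none called, and the mast cell tryptase Tpsab1 was at 2.02 (adjusted p = 0.12).

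In the retina the same genes were far lower, and many lay near the limit of detection. With PLX, the number of the 10 retinas at or under 3 reads was 10 for Ccl7, Ccl8, Ccl12, Ccl4 and Ccl6, 9 for Ccl3, Ccl5 and Ccr2, 7 for Ccl2 and 0 for Ccl9. Without PLX it was 7 for Ccl7 and Ccl8, 4 for Ccl4 and Ccl5, 3 for Ccl2 and Ccl3, 1 for Ccl12 and Ccr2, and 0 for Ccl6 and Ccl9. Ccl8, with a mean of 1.27 ± 1.42 without PLX and 0 in all 10 retinas with PLX, was under the minimum mean of 1 and was not tested by limma. A count of 0 here allows up to 3 reads per library, so absence was not shown for any of them.

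PLX lowered 4 of the 9 genes tested in retina (Ccl6, Ccl12, Ccl3 and Ccr2), when 1.08% of the 23243 genes tested were called lower. Ccl6 was 96.8, 27.4, 30.6, 7.80 and 86.4 in control – PLX and 122, 27.9, 33.1, 16.3 and 9.87 in Tgfbr2ΔEC – PLX retinas. With PLX it was 0, 0, 0, 0.633 and 0 in controls and 1.54, 2.58, 1.74, 0 and 0 in Tgfbr2ΔEC. It was the only one of the 10 genes without overlap between the diets, against 0.422% of genes tested, and its log2 difference was -4.51 (SE 0.46, limma adjusted p = 1.17e-06). All its retinas with PLX were at or under 3 reads, so this size depended on the processing (-5.21 to -2.78 over the alternatives), and its mean without PLX was 15.4 times the 3-read limit of the retinas with PLX. Ccl12 was 12.6, 15.0, 38.2, 11 and 12.8 in control – PLX and 11.6, 21.4, 6.23, 3.79 and 0 in Tgfbr2ΔEC – PLX retinas, and 0 in all 10 with PLX. Set against a limit of 3 reads per library, its mean of 13.3 ± 10.6 was at least 4.45-fold higher without PLX (adjusted p = 1.81e-05), a bound that the fitted log2 difference of -3.37 does not give.

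Ccl3 was 17.6, 17.3, 32.3, 4.23 and 4.31 in control – PLX, 9.83, 9.36, 2.75, 0 and 2.07 in Tgfbr2ΔEC – PLX, 4.75, 0.946, 0, 0 and 0 in control + PLX, and 1.88, 0, 0, 0 and 0 in Tgfbr2ΔEC + PLX retinas. Its groups overlapped, and the log2 difference was -2.36 (SE 0.49, adjusted p = 0.0113). Ccr2 was 246, 6.77, 15.1, 4.63 and 189 in control – PLX, 187, 4.77, 13.6, 7.40 and 2.18 in Tgfbr2ΔEC – PLX, 2.52, 2.38, 0, 0 and 0 in control + PLX, and 0, 14.3, 0, 0 and 0 in Tgfbr2ΔEC + PLX retinas. The retinas of mice 1, 5 and 6 thus held nearly all Ccr2 signal, and the log2 difference was -3.62 (SE 0.80, adjusted p = 0.0229).

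In those 3 retinas other values were also high. Ccl6 was 96.8, 86.4 and 122, against 7.80 to 33.1 in the other 7 – PLX retinas, and the receptor Ccr1 was 17.5, 24.9 and 12.1, against 0 to 4.40. Summed neutrophil markers were 209, 227 and 155, against 25.8 to 72.7, and summed MP markers 5055, 5824 and 4792, against 2424 to 4346. Summed resident macrophage markers were 2210, 546 and 545, against 388 to 535, and dendritic cell markers 303, 319 and 334, against 226 to 288. The sums of B cell markers and of T and NK cell markers overlapped those of the others. Summed monocyte markers were 249, 122 and 74.1, against 41.9 to 93.2, so that mouse 6 lay among the others. Pigment epithelium markers were lower there, at 5614, 7396 and 8440, against 9988 to 15039. Without these retinas, a comparison added after the data were seen, 2 genes remained called, Ccl6 (-3.81) and Ccl12 (-3.35, adjusted p = 0.000422), whereas Ccl3 (-2.30, adjusted p = 0.0553) and Ccr2 (-2.22, adjusted p = 0.129) did not pass. The call of Ccr2 was also lost when any of mice 1, 5, 14, 15, 16, 18, 19 or 20 alone was left out, with adjusted p of 0.0507 to 0.0581.

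The other retinal genes did not pass limma's test by diet. Their log2 differences were -1.63 for Ccl2 (adjusted p = 0.448), -0.97 for Ccl7 (adjusted p = 0.482), -1.80 for Ccl4 (adjusted p = 0.166), -1.10 for Ccl5 (adjusted p = 0.6) and -0.63 for Ccl9 (95% interval -1.41 to 0.15, adjusted p = 0.94). By the exact permutation test of each gene alone, 9 of the 10 had p under 0.05, against 4.09% of genes tested, Ccl9 being the exception (exact p = 0.138). Ccl9 was the only one of the 10 genes that all retinas held above 3 reads, at 153, 122, 63.8, 63.2 and 99.5 in control – PLX, 141, 26, 15.5, 50.4 and 60.1 in Tgfbr2ΔEC – PLX, 36, 139, 48.7, 118 and 69.8 in control + PLX, and 46.5, 19.1, 44.7, 7.53 and 23.7 in Tgfbr2ΔEC + PLX. Its groups overlapped across diets in retina, whereas in choroid they did not. Whether the effect of the diet on Ccl9 differed between the tissues was not tested. All 16 MP genes tested were called lower in retina, with sums of 2424 to 5824 against 410 to 592. Some other leukocyte markers were lower with them, whereas 0 of 5 B cell and 0 of 2 T and NK cell genes tested were called. The dendritic cell list had a median of -0.26, with 5 of 7 genes below 0. Called lower were 3 of 8 resident macrophage genes, with Mrc1 at -3.68, 1 of 7 dendritic cell genes, the integrin Itgax (-3.59), and 1 of 4 neutrophil genes, the growth factor receptor Csf3r (-3.42). Summed neutrophil markers ran from 25.8 to 227 (median 63.0) without and from 2.79 to 33.1 (median 11) with PLX. All 7 monocyte genes were below 0 (median -1.05), 3 at an unadjusted p under 0.05 and none called. The part of these cells in the retinal differences was not tested.

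**Figure D4:**
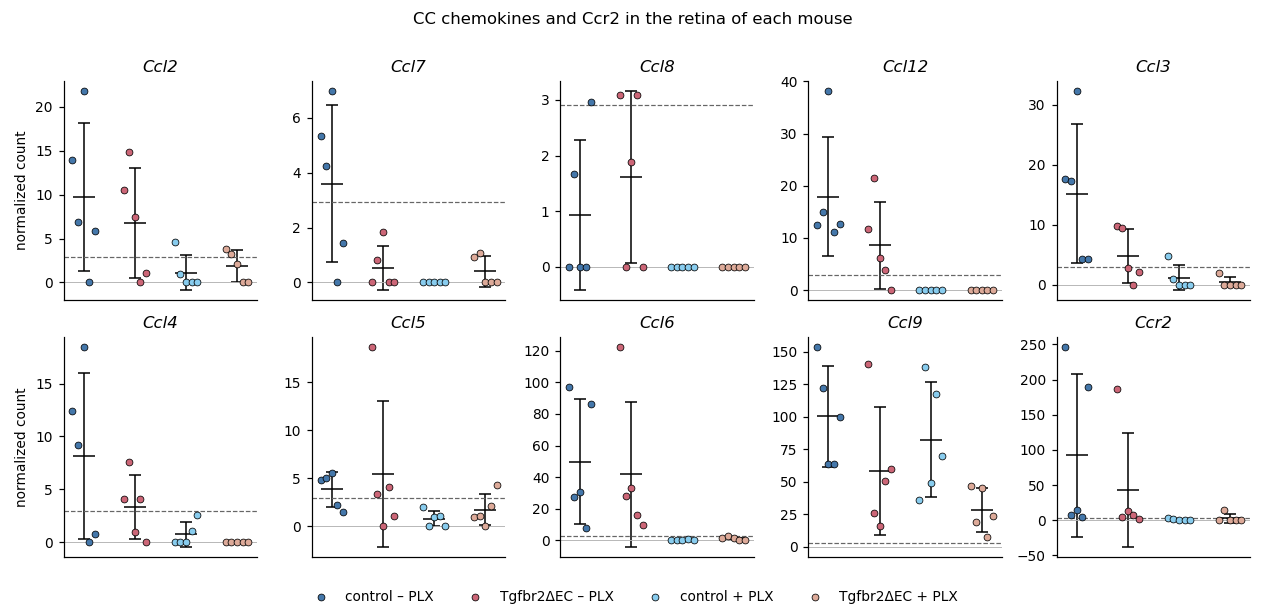
Normalized counts of the 10 genes in each of the 20 retinas by group of 5 mice, each point 1 mouse and the bar the group mean, with the 3-read limit drawn. Ccr2 is high in mice 1, 5 and 6 only, Ccl9 lies above the limit in all retinas, and Ccl8, Ccl12 and Ccl6 lie at or under it in all retinas with PLX.

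The second comparison asks whether deletion of endothelial Tgfbr2 changed these transcripts. In choroids without PLX none of the 10 genes was called by limma (0.00423% of genes tested were called, in either direction), and 1, Ccl2, had an unadjusted p under 0.05. That share was 1 gene, and became 303 genes with these 10 mice alone and 411 without control + PLX mouse 15, with none of the 10 genes called in either. Ccl2 was 361 to 476 in the 5 controls and 212 to 354 in the 5 Tgfbr2ΔEC mice. The groups did not overlap, which held for 1 of the 10 genes and for 0.436% of all genes in the lower direction. Its mean was 1.41-fold lower in Tgfbr2ΔEC (296 ± 62.1 against 418 ± 48.4, SD, n = 5), a log2 difference of -0.51 (SE 0.22, 95% interval -0.98 to -0.04). The exact permutation p of 0.0079 is the smallest that 5 against 5 mice can give, and the limma adjusted p was 0.465.

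Ccl8 (-0.68, exact p = 0.0476) and Ccl12 (-0.74, exact p = 0.0397) were the others with an exact permutation p under 0.05, so 3 of 10 against 2.4% of genes tested in that direction. The groups of both overlapped, and neither passed limma's test (adjusted p = 0.599 and 0.788). Ccl8 averaged 403 ± 181 in control – PLX and 238 ± 50.7 in Tgfbr2ΔEC – PLX, and control mice 3 and 4 lay highest, at 682 and 489. All 10 log2 differences were below 0, from -0.74 for Ccl12 to -0.04 for Ccl4, with a median of -0.29 beside 0.01 over all genes. Ccr2 was at -0.29 (95% interval -0.83 to 0.24, exact p = 0.27), Ccl3 at -0.05 (exact p = 0.873) and Ccl6 at -0.25 (exact p = 0.0952).

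The choroids of these groups differed in neural retina genes as well. All 10 of that list were higher in Tgfbr2ΔEC – PLX, none called but all 10 at an unadjusted limma p under 0.05, with a mean log2 level of 11.9 ± 0.68 against 9.54 ± 1.26 in control – PLX (SD, n = 5). With that level as a covariate the Ccl2 difference was -0.33 (adjusted p = 0.999), and over all alternatives it lay between -0.58 and -0.33 (adjusted p 0.201 to 0.999). Summed MP markers overlapped, at 49702 to 57233 in controls and 48397 to 57722 in Tgfbr2ΔEC, and so did resident macrophage markers, at 20285 to 25284 and 12908 to 23250. By single genes, however, all 8 resident macrophage genes (median log2 difference -0.26) and all 7 monocyte genes (-0.31) tested were below 0, none at an unadjusted p under 0.05, and so were all 7 mast cell genes (-1.52), 3 of them at an unadjusted p under 0.05 and none called. The part of these cells in the chemokine differences was not tested.

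**Figure D5:**
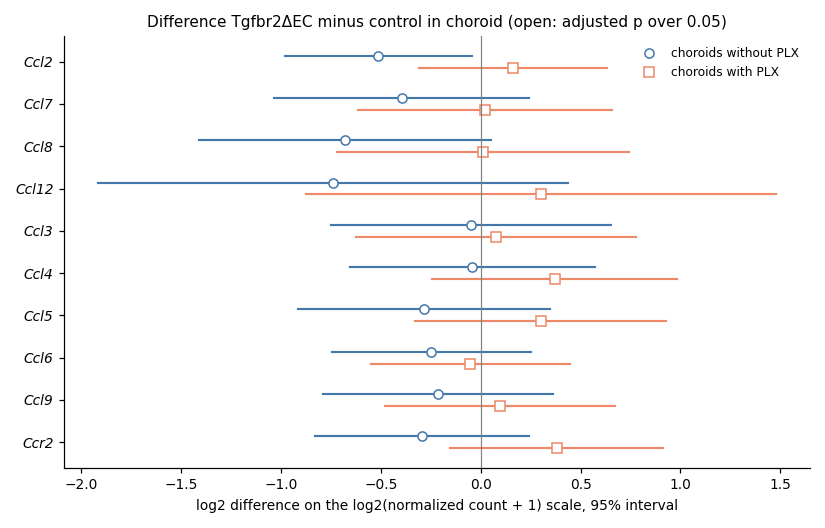
Log2 difference Tgfbr2ΔEC minus control for each gene in choroid, by diet, with 95% intervals from limma. In choroid without PLX all 10 estimates lie below 0 and the interval of Ccl2 ends at -0.04, whereas in choroid with PLX the 10 estimates lie between -0.05 and 0.38.

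With PLX, no gene was called by genotype in choroid (0.00423% of genes tested), none had an unadjusted limma p or an exact p under 0.05, and the log2 differences ran from -0.05 to 0.38. Ccl2 was at 0.16 (95% interval -0.31 to 0.63, exact permutation p = 0.571) and Ccr2 at 0.38 (-0.15 to 0.91, exact p = 0.246). The interaction, the genotype difference without PLX minus that with PLX, was called for none of the 10 and for 0% of the genes tested, and 1 gene, Ccl2, had an unadjusted p under 0.05. It was -0.68 for Ccl2 (SE 0.32, 95% interval -1.34 to -0.01, limma adjusted p = 0.744, exact permutation p = 0.061) and -0.68 for Ccr2 (-1.43 to 0.08, exact p = 0.1). All 10 interactions were below 0 (median -0.50, lowest -1.04). In the same contrast all 10 neural retina genes were above 0 (median 2.09, 5 at an unadjusted p under 0.05) and all 7 mast cell genes below 0 (median -2.10, 3 at such a p), with none called. With the neural retina level as a covariate the interaction of Ccl2 was -0.50 (limma adjusted p = 1). The genotype difference without PLX and the interaction share the choroids without PLX and are not independent of each other.

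In retina, no gene was called by genotype in either diet (0% of genes tested). Without PLX, 3 of 9 tested had an unadjusted limma p under 0.05, Ccl7 (-1.40, exact permutation p = 0.0873), Ccl12 (-1.43, exact p = 0.0952) and Ccl3 (-1.59, exact p = 0.111), and none of the 10 an exact p under 0.05. All 9 were below 0 (median log2 difference -1.07). So were 15 of 16 MP genes (median -0.26, 1 at an unadjusted p under 0.05), 6 of 8 resident macrophage genes (-0.77, 2 at such a p, among them Mrc1 at -1.99), 4 of 7 monocyte genes (-1.22, 2 at such a p) and all 4 neutrophil genes tested (-0.45, 0 at such a p), none of them called. Of the 7 dendritic cell genes 4 were below 0 (-0.18), and 2 had such a p, in opposite directions (Flt3 at 0.47, Xcr1 at -1.71). Below 0 were also 1 of 5 B cell genes and 0 of 2 T and NK cell genes. The part of these cells was not tested. Ccl7 was at or under 3 reads in all 5 Tgfbr2ΔEC – PLX retinas. Without the retinas of mice 1, 5 and 6 no gene was called by genotype or interaction either, Ccl12 being at -1.89 and Ccl3 at -2.16 (limma adjusted p = 0.972 each), and Ccr2 was at -0.37 in place of -1.26. Ccl6 turned from -0.31 to 0.06, neither called, and Ccl7 and Ccl8 were not tested because their means lay under 1. With PLX, Ccl9 averaged 82.2 in controls and 28.3 in Tgfbr2ΔEC retinas, a log2 difference of -1.57 (95% interval -2.68 to -0.46, limma adjusted p = 1, exact p = 0.0317). Its groups overlapped, and it was the 1 of 10 with an exact p under 0.05, against 1.52% of genes tested in that direction. It was also the 1 of 9 tested with an unadjusted limma p under 0.05. The retinal interaction was called for none of the genes (0% of genes tested), and 1, Ccl7, had an unadjusted p under 0.05.

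All 10 genes were higher in choroid than in retina of the same mice, in both diets, when 37.7% of the 24317 genes tested were called higher in each. Most leukocyte markers were higher there too. Without PLX these were 15 of 16 MP genes (median log2 difference 3.97, beside 5.16 for the 10 genes), 7 of 8 resident macrophage genes (7.08), all 7 monocyte (5.19), all 7 dendritic cell (4.35), all 6 neutrophil (3.23), all 10 T and NK cell (3.49) and all 7 mast cell genes (5.6), as well as all 6 fibroblast genes (10.6), whereas B cell genes were split, 2 of 5 higher and 2 lower. Of the 6 endothelial genes 5 were higher in choroid (4.19), as were all 6 pigment epithelium genes (5.64), and all 10 neural retina genes were lower (-5.45). The part of these cells in the tissue differences was not tested. Without PLX no choroid overlapped any retina in 10 of 10 genes (23.1% of genes tested), and with PLX in 9 of 10 (22.3%), Ccl12 being the exception because 1 choroid was at 0. Without PLX the mean was 252.3-fold higher in choroid for Ccl8, 91.2-fold for Ccl7, 49.2-fold for Ccl6, 43.2-fold for Ccl2, 34.1-fold for Ccr2, 18.5-fold for Ccl9, 17.8-fold for Ccl5, 14.2-fold for Ccl3, 11.7-fold for Ccl4 and 6.88-fold for Ccl12. The retinal means of Ccl8 (1.27) and Ccl7 (2.06) lay under 3 reads per library, so the size of these folds is uncertain. The folds of Ccr2 and Ccl6 rest on the retinas of mice 1, 5 and 6. Without these the retinal means were 7.78 ± 4.82 and 21.9 ± 10.4 (SD, n = 7), and the folds 296-fold for Ccr2 and 103-fold for Ccl6, which changes their place among the genes, whereas all 10 genes stayed called (limma). That of Ccl5 became 26.9-fold. For each of these the exact sign-flip permutation p was 0.002, the smallest that 10 mice can give.

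With PLX, Ccl9, the only one of the 10 genes above 3 reads in all retinas, had a log2 difference between the tissues of 3.31 (SE 0.31). The retinal means of the other 9 lay under 3 reads per library, so their fitted differences depended on the processing. Over the alternatives they were 4.86 to 7.13 for Ccl2, 3.90 to 6.87 for Ccl7, 3.41 to 5.48 for Ccl5 and 6.66 to 9.28 for Ccr2. Ccl8, at 0 in all retinas with PLX, was at least 8.29-fold higher in choroid, set against 3 reads per library. Ccl2 in the depleted choroid, at 184 ± 55.8, was still above every retina of either diet, the highest of which held 21.8. Ccr2 in the depleted choroid, at 652 ± 195, likewise exceeded the retinas of mice 1, 5 and 6.

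The genes most like Ccr2, Ccl2 and Ccl6 over the 20 choroids were found by Pearson correlation of log2(normalized count + 1) among 17597 genes with a mean of at least 10, as a description only, since all share the diet groups and the libraries. Those most like Ccr2 were Plxna4os1, Pirb and Fcgr2b (r = 0.96 each), and those most like Ccl6 were Clec4a1, Lilrb4a and Fcgr2b (0.98 each). Fcgr2b and Lilrb4a encode inhibitory receptors of myeloid cells. For Ccl2 they were Arpc5 (0.91), Ccl7 (0.91) and Arpc2 (0.90), Arpc2 and Arpc5 being subunits of the actin-branching Arp2/3 complex. The mean of each of the 4 groups was then subtracted, which removes the mean difference between the diets but not differences in depletion between mice of a group. The nearest to Ccr2 were then Fcgr2b (0.83), Gpr34 (0.82) and Casp8 (0.79), to Ccl6 Lilrb4a (0.87), Clec4a1 (0.87) and Metrnl (0.83), and among the nearest to Ccl2 were Sec13 (0.82) and the transcription factor Nfil3 (0.82). Fcgr2b for Ccr2, and Lilrb4a and Clec4a1 for Ccl6, were thus among the nearest 3 by both measures.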

How the data were processed

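RNA of 20 choroids and 20 retinas was sequenced. The authors quantified reads with salmon 1.10.1 against GRCm39 (GENCODE M29), summarised them per gene and normalized them with DESeq2 1.36.0. The deposited values are this normalized signal, which is not whole reads (49.8% to 77.8% of low values per library lay within 0.1 of a whole read), so no count test was run. Total signal was 24718469 to 25956180 in choroid and 22256892 to 24507335 in retina. Symbols were matched through a GENCODE annotation for 53700 of 54307 ids.

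Each tissue was fitted with limma 3.58.1 (R 4.3.3, mean-variance trend) on log2(value + 1), keeping genes whose mean reached 1, with its 4 groups in one fit. The tissues were compared in a fit of all 8 groups. P-values were adjusted by Benjamini-Hochberg over all genes tested and called at 0.05. The fit was tested on simulated data. Each member also had a two-sided exact permutation test, of 5 mice against 5 (smallest p 0.0079), within genotype (63504 relabellings, smallest p 3.1e-05) or over the sign of each mouse's tissue difference (1024 flips). For the interaction, genotype was relabelled within each diet, which presumes no genotype difference in either diet. Intervals are 95%. The named genes were all members, and of the lists those past the test in the CC family or of lowest p, with the nearest genes by correlation for Ccr2, Ccl2 and Ccl6. The members and lists were chosen with earlier results of these data known. The study's covariates, sex and estimated neuronal share, are not in the labels, and scores from the data stand in for them as alternatives. The 5 mice of a group are separate animals. No 2 libraries of a group were identical (80 pairs).

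Choroid and retina of a mouse share its number in the labels and so are paired. Their deviations from the group means correlated at -0.16 to 0.29 (median 0.13, 18160 genes), over 0.1 in 12 of 20 mice. Alternatives were other pseudocounts, minimum means and scalings, covariates, a replicate block and each mouse left out. Ccl21a has near-identical copies and is not named further, a few genes of the lists are not reported here, and 2 genes that overlap Ccl3 and Ccl5 in the annotation were not analysed here.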

Additional observations from a re-analysis of the deposited data

Results flagged for a closer look

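In groups of 5, single mice stood apart from the other 4 (gap to the nearest over the group's range above 0.71) in 14 of 74 groups, when chance gives about 1 in 20, or 3.7. In choroid these were Ccl7 in control – PLX mouse 3 (280.7, the others 189 to 209), Ccl3 in Tgfbr2ΔEC – PLX mouse 10 (80.69, the others 139 to 160.4), Ccl5 in control – PLX mouse 1 (55.2, the others 94.8 to 103), Ccl5 in Tgfbr2ΔEC + PLX mouse 18 (39.81, the others 72.2 to 79.5) and Ccl9 in control + PLX mouse 13 (903.2, the others 303 to 429).

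In retina they were Ccr2 (186.5), Ccl6 (122.1) and Ccl5 (18.63) of Tgfbr2ΔEC – PLX mouse 6, Ccl12 of control – PLX mouse 3 (38.17), Ccl2 (4.571) and Ccl3 (4.755) of control + PLX mouse 11, and Ccr2 of Tgfbr2ΔEC + PLX mouse 17 (14.3, the others 0). In the remaining cases, Ccl3 of Tgfbr2ΔEC + PLX mouse 16 (1.879) and Ccl6 of control + PLX mouse 14 (0.633), the whole group lay under 3 reads. Mouse 6 accounts for 3 of the retinal cases, and no retina of mouse 1 or 5 is listed because these lie high together in one group.

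The interaction of genotype and diet for Ccl7 in retina was -1.80 (exact permutation p = 0.0282), where limma's adjusted p was 1.0. This permutation relabelled genotype within each diet and so presumes no genotype difference in either diet. It therefore cannot by itself show that the genotype difference differed between the diets. With PLX 3 of 5 Tgfbr2ΔEC retinas and all 5 control retinas were at 0 for Ccl7.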

How the results depend on the processing

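In retina 4 genes were called lower by diet, and 2 were with a minimum mean of 10 (fewer genes tested) and 2 without the retinas of mice 1, 5 and 6. Leaving out single mice gave 3 to 5. Ccr2 in retina lost its call in 10 of 31 alternatives (adjusted p 0.00621 to 0.153), among them a pseudocount of 5 (log2 difference -2.20, adjusted p = 0.153), whereas Ccl4 gained one without mouse 4 (-2.11, adjusted p = 0.0241). The cause was not tested. The genotype difference of Ccl2 in retina without PLX, -0.51, turned to 0.071 without Tgfbr2ΔEC – PLX mouse 9 (-1.22 to 0.071 over single mice left out). No alternative changed the count of members called by genotype or interaction, which stayed at 0, or moved those by diet in choroid or by tissue by over 1.5 times. With the replicate block on the mouse, all genes called between the tissues numbered 18174 without PLX and 18209 with PLX, against 18274 and 18338, and all 10 members kept their call in both. Over all genes, 254 were called by diet in retina and 154 with a minimum mean of 10, and 1 by genotype in choroid without PLX, but 303 with those 10 mice alone, 411 without mouse 15, 2 without mouse 4 or mouse 8 and 0 with a minimum mean of 10. With PLX the 1 gene called by genotype in choroid became 0 in 20 alternatives, and in retina 0 became 1 without mouse 12. At 3 reads per library, 6 retinal genes could not be told from 0 in most of the 20 mice, and a fall in them was not measurable beyond that limit. These were Ccl7 and Ccl8 (17 mice each), Ccl4 (14), Ccl5 (13), Ccl3 (12) and Ccl12 (11).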
